A study of Sus scrofa with 4 samples.

Results

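The nuclear genes of the mitochondrial respiratory chain and the ATP synthase were followed through the differentiation of pig subcutaneous preadipocytes. They were taken by name, as the protein-coding genes whose symbols begin with NDUFA, NDUFB, NDUFC, NDUFS, NDUFV, COX4 to COX8, UQCR, SDHA to SDHD or ATP5. The rule found 80 genes among 16173 protein-coding genes. No measured value entered the rule, but the set was chosen with earlier results of these data known. Of the 80, 66 encode structural subunits and 11 are assembly factors by name (8 NDUFAF and 3 SDHAF genes). The other 3, ATP5S, ATP5SL and NDUFA4L2, were kept apart by name, whatever their role. The structural subunits comprise 37 of complex I, 4 of complex II, 2 of complex III, 8 of complex IV and 15 of complex V. NDUFA4 is counted with complex IV, because its product is a subunit of that complex in spite of its name. Subunits not found under these symbols and those encoded by mitochondrial DNA are not analysed here, so that complex III is represented by UQCR10 and UQCRB alone. Complex IV is incomplete as well, since no gene named COX4, COX5A, COX7B or COX8 was among the members.

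The respiratory chain passes electrons from NADH (complex I) and succinate (complex II) through coenzyme Q, complex III and cytochrome c to oxygen at complex IV. Complexes I, III and IV pump protons across the inner mitochondrial membrane, and complex V, the ATP synthase, uses the returning protons to make ATP. In fat cells this machinery also supports the synthesis and the turnover of stored lipid. Assembly factors help to build a complex but are not part of the finished enzyme.

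The cells were isolated from subcutaneous fat of 3 male Chinese Erhualian piglets, 5 days old, and grown to confluence. A hormone cocktail of dexamethasone, IBMX and insulin was then given for 2 days, followed by insulin alone for 2 days and by growth medium. RNA was sampled before the cocktail (D0) and 2, 4 and 8 days after it was added (D2, D4, D8), and where 4 values are given without a label they follow this order. For each stage, RNA of the 3 piglets was pooled into 1 rRNA-depleted library. With 1 library for each stage there were no replicates, so no p-value was computed, and stage and library cannot be told apart.

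The library totals behind the deposited FPKM, which scales the fragments on a gene by its length and by the total counted in the library, were recovered as 75387428 (D0), 54987801 (D2), 74358922 (D4) and 54128151 (D8). The 80 genes took 0.877% to 0.919% of these reads in each library. The median member had 6164 reads (D0), 4090 (D2), 5784 (D4) and 4354 (D8). Ratios are given with exact 95% intervals, which cover counting error only. Adipocyte markers were low before differentiation and high after it. The summed FPKM of 8 adipocyte markers was 110.7 (D0), 415.9 (D2), 1648 (D4) and 2094 (D8). FABP4 was the highest of them in every library, with 77.5, 200.6, 853.3 and 1557 FPKM. Of the 7 reliably expressed ones, 7 were at least 2-fold higher at D4 than at D0. In D8 vs D4, 1 of the 7 was at least 1.5-fold higher and 4 were at least 1.5-fold lower. Of all protein-coding genes, 9.94% were higher and 25.8% lower by this measure. The summed FPKM of 5 stromal markers was 942.7, 1880, 2518 and 1987, carried by COL3A1 (490.7, 1286, 2058 and 1624). In D4 vs D0, PDGFRA was 1.97-fold and PDGFRB 2.31-fold higher, whereas COL1A1 and THY1 were lower. At D8, COL3A1 alone of the 5 was above its D0 level. Of other cell types, 5 endothelial markers summed to 1.16 to 2.65 FPKM. Nearly all of this came from PECAM1 (2.56, 1.14, 1.70 and 1.87 FPKM), with CDH5 and VWF at or near 0. The 5 leukocyte markers summed to 3.59 to 8.81 FPKM, most of it from CD14 (2.78 to 7.54 FPKM) and CD163 (0.270 to 1.42 FPKM). PTPRC did not exceed 0.0712 FPKM. The summed FPKM of 5 smooth muscle markers was 6205 (D0), 663.7 (D2), 508.9 (D4) and 4810 (D8). ACTA2 (2907, 324.1, 225 and 2762) and TAGLN (2767, 297.4, 277.1 and 1987) carried this sum. DES (435.8, 37.7, 4.05 and 35.7) and CNN1 (94.3, 4.22, 2.39 and 24.3) stayed at D8 far below their D0 level, and MYH11 did not exceed 0.633 FPKM.

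Reliably expressed genes had at least 1 FPKM in at least 3 of the 4 libraries. This held for 78 of the 80 members, including 66 of 66 structural subunits, and for 9173 protein-coding genes in all. The exceptions were NDUFAF6, with 0.789 to 1.69 FPKM, and NDUFA4L2, with 0.31 to 1.30 FPKM. The respiratory chain genes were among the abundant mRNAs: they held 2.57% to 2.70% of the summed FPKM of protein-coding genes in each library. In the plot of all levels, most structural subunits lay above 20 FPKM, whereas assembly factors lay mostly below 20 FPKM.

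**Figure D1:**
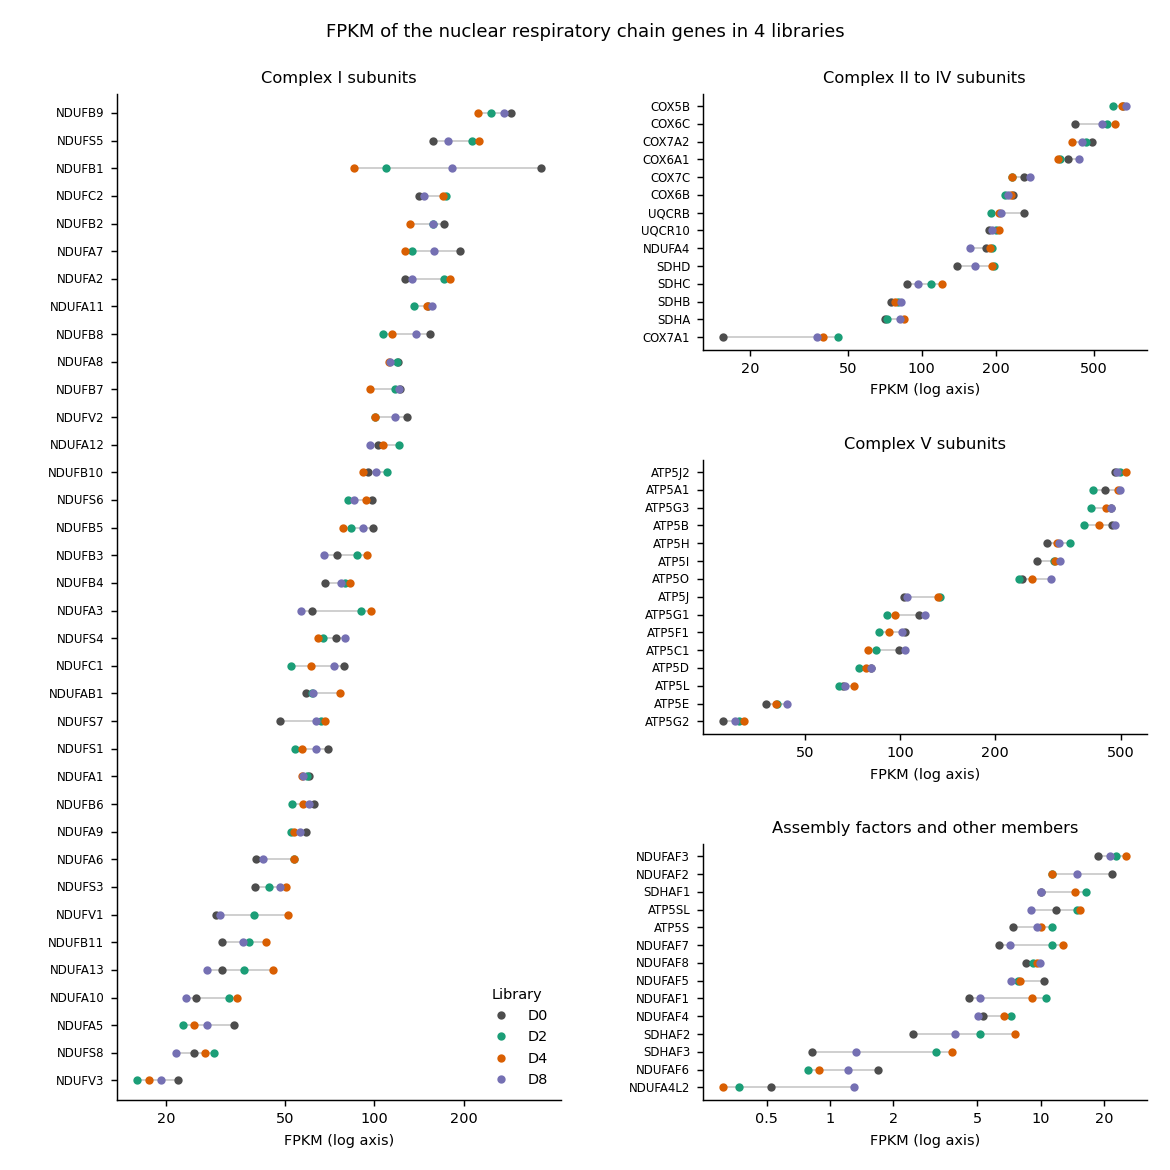
FPKM (log axis) of the genes at D0, D2, D4 and D8, with 1 member not shown, 1 point for each library and a grey line from the lowest to the highest. The 4 points of most subunits lie close together, while those of NDUFB1, COX7A1, SDHAF2 and SDHAF3 lie far apart.

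The structural subunits kept nearly the same levels through differentiation. As deposited, their summed FPKM was 10397 (D0), 10066 (D2), 10342 (D4) and 10489 (D8), so that the lowest sum was 0.968 of the D0 sum and the highest 1.01. The order of these sums depends on scaling. Scaling to the same sum over protein-coding genes moved every D2 vs D0 ratio by 0.11 on the log2 scale. Median-ratio scaling, described below, moved every D8 vs D0 ratio by 0.16. For a single subunit, the highest of the 4 FPKM values was a median of 1.26 times the lowest, and the smallest such ratio was 1.06 (NDUFA1, a membrane subunit of complex I). Over all reliably expressed protein-coding genes that median was 1.64, and over those with a mean FPKM of at least 20 it was 1.5. In bulk RNA, fewer cells that express a gene and less RNA per cell cannot be told apart.

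Counts past a threshold were low. No test across replicates was possible, and a gene was counted here when it differed at least 1.5-fold on log2(FPKM + 0.01). In D2 vs D0, 7 of 78 members were higher and 3 lower, where 15.5% of all protein-coding genes were higher and 20.1% lower. In D4 vs D2 none of the 78 was higher or lower, where 11.6% of all genes were higher and 2.97% lower. In D8 vs D4, 1 member was higher and 8 were lower, where 9.94% of all genes were higher and 25.8% lower. In D4 vs D0, 7 were higher and 3 lower, where 21.8% of all genes were higher and 17.5% lower. In D8 vs D0, 3 were higher and 1 lower, where 6.86% of all genes were higher and 14.6% lower. These comparisons share libraries and are not independent of each other.

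Of the structural subunits, 59 of 66 (89.4%) stayed under 1.5-fold in all 5 comparisons. The same held for 39.8% of all protein-coding genes, and for 51.3% of the 2414 with a mean FPKM of at least 20, against 58 of 65 subunits (89.2%) above that level. Only 4 of the 12 reliably expressed assembly factors and other members (33.3%) stayed under 1.5-fold. By complex, 31 of 37 subunits of complex I, 4 of 4 of complex II, 2 of 2 of complex III, 7 of 8 of complex IV and 15 of 15 of complex V stayed under it. At least 2-fold in any comparison, the ratio that the study used for DE mRNAs together with a false discovery rate, was reached by 6 of 78 members, where 29.8% of all genes reached it. Of these 6 genes, 2 were structural subunits (NDUFB1 and COX7A1) and 4 were assembly factors.

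**Figure D2:**
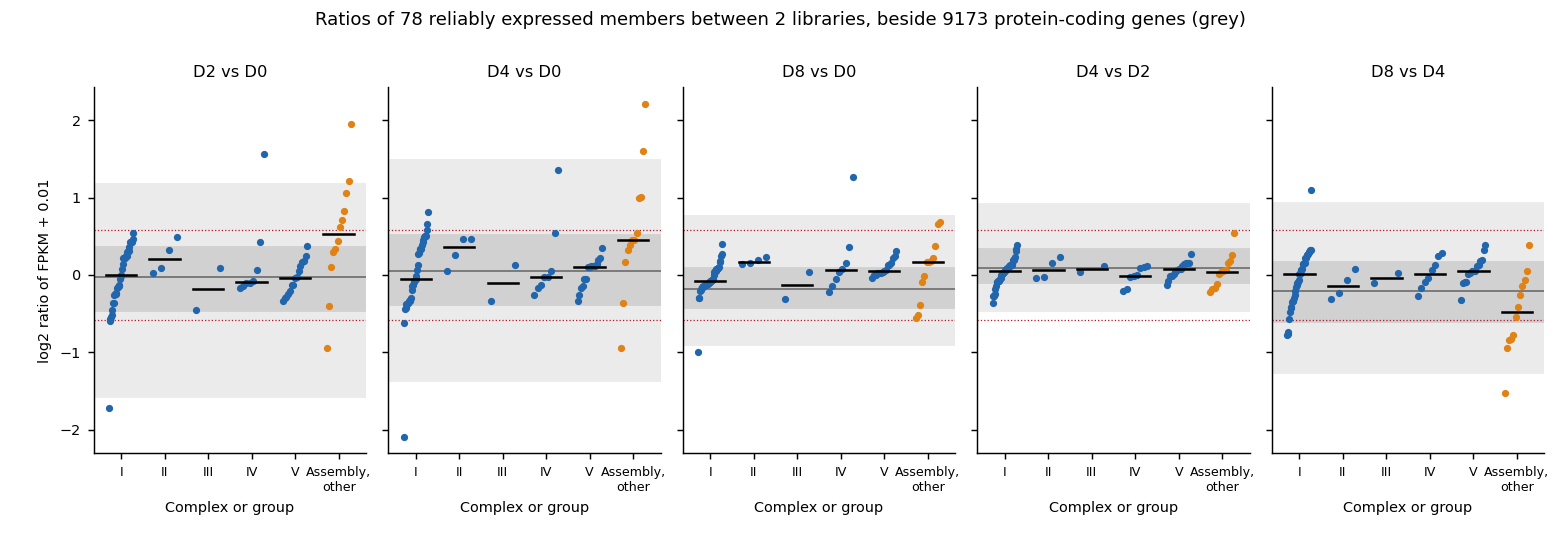
log2 ratios of FPKM + 0.01 in the 5 comparisons for the 78 reliably expressed members, grouped by complex (blue, structural subunits) or as assembly factors and other members (orange), each point 1 gene and each black bar a group median. Grey bands hold the middle 50% and 90% of 9173 protein-coding genes, the grey line is their median and dotted lines mark 1.5-fold. Subunits lie mostly within the dotted lines, and assembly factors reach beyond them in D2 vs D0, D4 vs D0 and D8 vs D4.

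The median log2 ratio of the 66 subunits was −0.01 in D2 vs D0, 0.06 in D4 vs D2, 0.02 in D8 vs D4, 0.05 in D4 vs D0 and 0.03 in D8 vs D0. Over all protein-coding genes these medians were −0.03, 0.09, −0.21, 0.06 and −0.18. At a mean level of at least 20 FPKM, where most subunits lay, the median of all genes was −0.02 in D8 vs D4 and −0.14 in D8 vs D0, and that of the subunits 0.01 and 0.03. Median-ratio scaling, which divides each library by its median ratio to the mean of the 4 libraries on the log scale, moved every D8 vs D4 ratio by 0.21 and every D8 vs D0 ratio by 0.16 on the log2 scale, and the direction of small differences at D8 depends on that choice.

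Complex I, the NADH dehydrogenase, had 37 subunits in the files, 7 of which form the catalytic core. Its summed FPKM was 3614 (D0), 3349 (D2), 3338 (D4) and 3343 (D8). NDUFB1 accounted for most of the distance between D0 and the later stages. Without it, a setting chosen after its values were seen, the sum of the other 36 was 3251 (D0), 3239 (D2), 3252 (D4) and 3161 (D8).

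NDUFB1, a small accessory subunit in the membrane arm, had 362.7 FPKM (D0), 109.9 (D2), 85.2 (D4) and 182.3 (D8). It was the highest of the 37 complex I subunits at D0, the 13th at D2, the 18th at D4 and the 2nd at D8. The level at D4 was 4.26-fold lower than at D0 (4.09 to 4.43), and the level at D8 was 2.14-fold higher than at D4 (2.04 to 2.24). These values rested on 13234, 2925, 3067 and 4775 reads. The gene lies on chromosome 7 (113652772 to 113659937, minus strand, Sscrofa11.1) and overlaps CPSF2 on the opposite strand by 35 bases. CPSF2 had 20.9 to 30 FPKM. The smooth muscle markers ACTA2 and TAGLN were likewise high at D0 and D8 and low at D2 and D4, whereas DES and CNN1 at D8 stayed far below D0, and the part of these markers in the NDUFB1 result was not tested.

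The other abundant subunits of complex I varied less. NDUFB9, a further membrane arm subunit, had 288.8, 246.3, 223.2 and 273.8 FPKM at D0, D2, D4 and D8. NDUFS5 had 158.2, 212.5, 224.3 and 177.1 FPKM. NDUFB9 was thus lowest at D4, where NDUFS5 was highest.

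The 7 core subunits, which carry the flavin, the iron-sulfur clusters or the quinone site, had a summed FPKM of 445.2 (D0), 462.9 (D2), 485.8 (D4) and 441.5 (D8). NDUFV1, the subunit that binds NADH and the flavin, had 29.3 FPKM (D0), 39.3 (D2), 51.4 (D4) and 30.2 (D8). It was the only core subunit past 1.5-fold, 1.75-fold higher in D4 vs D0 (1.68 to 1.83) and 1.70-fold lower in D8 vs D4 (1.63 to 1.78). Its partner NDUFV2, an iron-sulfur subunit, ran the other way, with 129.3, 100.9, 100.8 and 117.4 FPKM. NDUFS1 likewise had its lowest levels at D2 and D4, while NDUFS3, NDUFS7 and NDUFS8 were higher at D2 and D4 than at D0.

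Among the 30 accessory subunits of complex I, the directions were mixed. In D4 vs D0, 12 were higher and 18 lower, where 53.7% of all protein-coding genes were higher. The highest D4 vs D0 ratio among them belonged to NDUFA3, with 61.7, 90.1, 97.4 and 56.8 FPKM, which was 1.58-fold higher in D4 vs D0 (1.5 to 1.66) and 1.72-fold lower in D8 vs D4 (1.62 to 1.82). Next to NDUFB1, the lowest ratio belonged to NDUFA7, with 194.8, 133.9, 127.1 and 158.6 FPKM, which was 1.53-fold lower in D4 vs D0 (1.48 to 1.59). NDUFA7 shares 19 bases with RPS28 on the opposite strand. The highest level was at D0 for 17 of the 37 subunits of complex I (45.9%), at D2 for 4 (10.8%), at D4 for 14 (37.8%) and at D8 for 2 (5.41%). Over all protein-coding genes these shares were 36.6%, 16.7%, 37.2% and 9.53%. With median-ratio scaling 16 (43.2%) were highest at D8, against 19.2% of all protein-coding genes.

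Complex II, succinate dehydrogenase, is the one complex encoded wholly in the nucleus, and all 4 subunits were found. Each of the 4 had its lowest FPKM at D0, where 22.7% of all protein-coding genes had theirs as deposited. The 4 were also lowest at D0 when the libraries were scaled in either of 2 other ways. The summed FPKM was 372.5 (D0), 456.6 (D2), 476.0 (D4) and 424.7 (D8), that is 1.23, 1.28 and 1.14 times the D0 sum. The membrane anchors differed the most. SDHD had 139.5 FPKM (D0), 196.2 (D2), 192.8 (D4) and 164.3 (D8), and SDHC had 87.1, 108.6, 120.5 and 96.8 FPKM. In D4 vs D0 the ratio was 1.38 for SDHD (1.35 to 1.42) and 1.38 for SDHC (1.35 to 1.42). The catalytic flavoprotein SDHA had 71.0, 72.1, 84.7 and 81.2 FPKM, a D4 vs D0 ratio of 1.19 (1.17 to 1.22). The iron-sulfur subunit SDHB had 74.9, 79.8, 77.95 and 82.4 FPKM, and its D4 vs D0 ratio of 1.04 had a counting interval that included 1 (0.999 to 1.08). No subunit of complex II passed 1.5-fold.

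**Figure D3:**
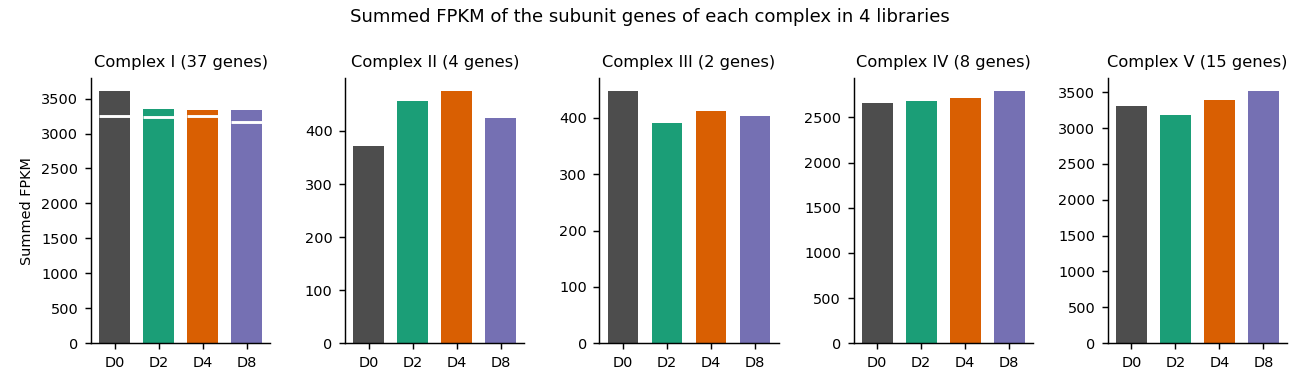
Summed FPKM of the structural subunit genes of complexes I to V in the 4 libraries (bars from 0, no replicates). White lines in the complex I panel mark the sum without NDUFB1, which runs from 3161 to 3252. In FPKM as deposited, complex II is lowest at D0, and complex V is highest at D8.

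Complex III, the cytochrome bc1 complex, was represented by 2 small subunits. UQCRB had 260.8 FPKM (D0), 191.1 (D2), 206.8 (D4) and 211.0 (D8), and was 1.37-fold lower in D2 vs D0 (1.33 to 1.41). UQCR10 had 187.7, 200, 205.9 and 192.3 FPKM. The level of UQCRB was above that of UQCR10 at D0 and close to it at D2 and D4.

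Complex IV, cytochrome c oxidase, contained the most abundant members. COX5B had 661.6 FPKM (D0), 599.9 (D2), 651.2 (D4) and 680.3 (D8). COX6C had 419.7, 564.6, 608.7 and 539.3 FPKM and was 1.45-fold higher in D4 vs D0 (1.42 to 1.48). COX6C was thus lowest at D0, whereas COX5B stayed within a narrow range. COX6A1, the isoform of this subunit outside striated muscle, had 392.2, 365.7, 357.5 and 435.0 FPKM. COX7C had 260.6, 231.9, 231.8 and 275.3 FPKM, and COX6B had 234.0, 217.3, 230.1 and 224.8 FPKM. NDUFA4 had 183.3, 192.3, 189.7 and 157.5 FPKM, while its relative NDUFA4L2, known for its induction by hypoxia, did not exceed 0.823% of the NDUFA4 level in any library. NDUFA4L2, which was not reliably expressed, had 0.524, 0.370, 0.310 and 1.30 FPKM. It was 4.09-fold higher in D8 vs D4 (3.48 to 5.06), from 153 and 466 reads, the largest D8 vs D4 ratio of the 80 members.

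The isoforms of COX7A had different profiles. COX7A1, the isoform known from heart, skeletal muscle and brown fat, had 15.5 FPKM (D0), 45.7 (D2), 39.7 (D4) and 37.3 (D8). It was 2.94-fold higher in D2 vs D0 (2.61 to 3.33), 2.56-fold higher in D4 vs D0 (2.27 to 2.88) and 2.40-fold higher in D8 vs D0 (2.12 to 2.73), and it was the only reliably expressed member past 2-fold in D8 vs D0. The ubiquitous isoform COX7A2 had 492.4, 467.4, 410.3 and 446.6 FPKM. COX7A1 therefore stood at 3.15% of the COX7A2 level (D0), 9.79% (D2), 9.67% (D4) and 8.36% (D8). COX7A1 lies on chromosome 6 (45519225 to 45520721, minus strand) and was read from 384, 825, 968 and 663 reads. Of the other brown or beige fat markers examined, CIDEA had 2.75, 9.74, 40.2 and 54.3 FPKM, and PDK4 had 0.153, 1.62, 1.97 and 1.91 FPKM. DIO2 and PPARGC1A stayed under 1 FPKM in every library. UCP1, also on the list, was not found by that symbol among the protein-coding genes.

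Complex V, the ATP synthase, had 15 subunit genes, and none passed 1.5-fold in any comparison. Its summed FPKM was 3303 (D0), 3185 (D2), 3397 (D4) and 3522 (D8). At D8, 13 of 15 were higher than at D0, and the median log2 ratio of the 15 was 0.05. The counting interval of this ratio included 1 for ATP5D, ATP5J, ATP5J2 and ATP5L, which were higher, and for ATP5F1 and ATP5G3, which were lower. Scaling to the same sum over protein-coding genes left 12 of 15 higher, and median-ratio scaling 15 of 15. Of all protein-coding genes, 31.4% were higher at D8 than at D0 as deposited, 30.7% with the same sum and 47.1% with median-ratio scaling. Of the 15, 8 had their highest level at D8, where 9.53% of all protein-coding genes did. That number was 4 with the same sum, against 7.64% of all protein-coding genes, and 14 with median-ratio scaling, against 19.2%.

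The most abundant genes of complex V came from both its catalytic head and its membrane part. ATP5A1 (alpha) had 446.5, 407.9, 491.2 and 497.8 FPKM, and ATP5B (beta) had 469.8, 383.5, 426.0 and 480.6 FPKM. ATP5C1 (gamma, the rotating shaft) had 99.6, 83.7, 78.9 and 103.3 FPKM. Within the catalytic head, the alpha and beta genes lay well above ATP5C1 in every library. They also lay above ATP5D (delta, 74.1 to 80.9 FPKM) and ATP5E (epsilon, 37.5 to 43.8 FPKM). ATP5C1 had the lowest D4 vs D0 ratio of the complex, 1.26-fold lower (1.24 to 1.29), and was 1.31-fold higher in D8 vs D4 (1.28 to 1.34).

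In the membrane part, ATP5J2 (subunit f) was the most abundant gene of the complex by mean level, with 480.5, 497.1, 521.4 and 486.8 FPKM. ATP5J, a peripheral stalk subunit, had the highest D4 vs D0 ratio, with 103.2, 133.7, 131.9 and 105.5 FPKM and a ratio of 1.28 (1.24 to 1.32). ATP5J overlaps GABPA on the opposite strand by 722 bases. GABPA, a transcription factor of respiratory genes, had 9.61, 12.3, 12.6 and 7.28 FPKM, and whether counting used strand is not given in the sources used here.

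The c ring is encoded by ATP5G1, ATP5G2 and ATP5G3, which yield the same mature protein. ATP5G3 had 466.3, 402.6, 449.0 and 466.0 FPKM, ATP5G1 had 114.8, 91.0, 96.1 and 119.7 FPKM, and ATP5G2 had 27.5, 31.0, 31.9 and 29.98 FPKM. The shares of the 3 genes hardly moved: ATP5G3 held 76.6%, 76.8%, 77.8% and 75.7% of their summed FPKM. ATP5G2, the least abundant, went from 4.51% at D0 to 5.90% at D2, 5.53% at D4 and 4.87% at D8. Paralogues and processed pseudogenes can share reads with such genes, and the handling of multiply aligned reads is not given in the sources used here.

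The assembly factors differed more between libraries than the structural subunits did. Of the 12 reliably expressed members that are not structural subunits, 6 were at least 1.5-fold higher and 1 lower in D2 vs D0, 4 were higher and 1 lower in D4 vs D0, and 0 were higher and 5 lower in D8 vs D4. Of all protein-coding genes, 15.5% were higher and 20.1% lower in D2 vs D0, 21.8% and 17.5% in D4 vs D0, and 9.94% and 25.8% in D8 vs D4. The median log2 ratio of the 12 was 0.53 in D2 vs D0, 0.45 in D4 vs D0, −0.48 in D8 vs D4 and 0.17 in D8 vs D0. Their median ratio of the highest to the lowest FPKM was 1.68, against 1.26 for subunits and 1.64 for all protein-coding genes. They were also expressed at lower levels, and the difference between the groups was not tested.

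**Figure D4:**
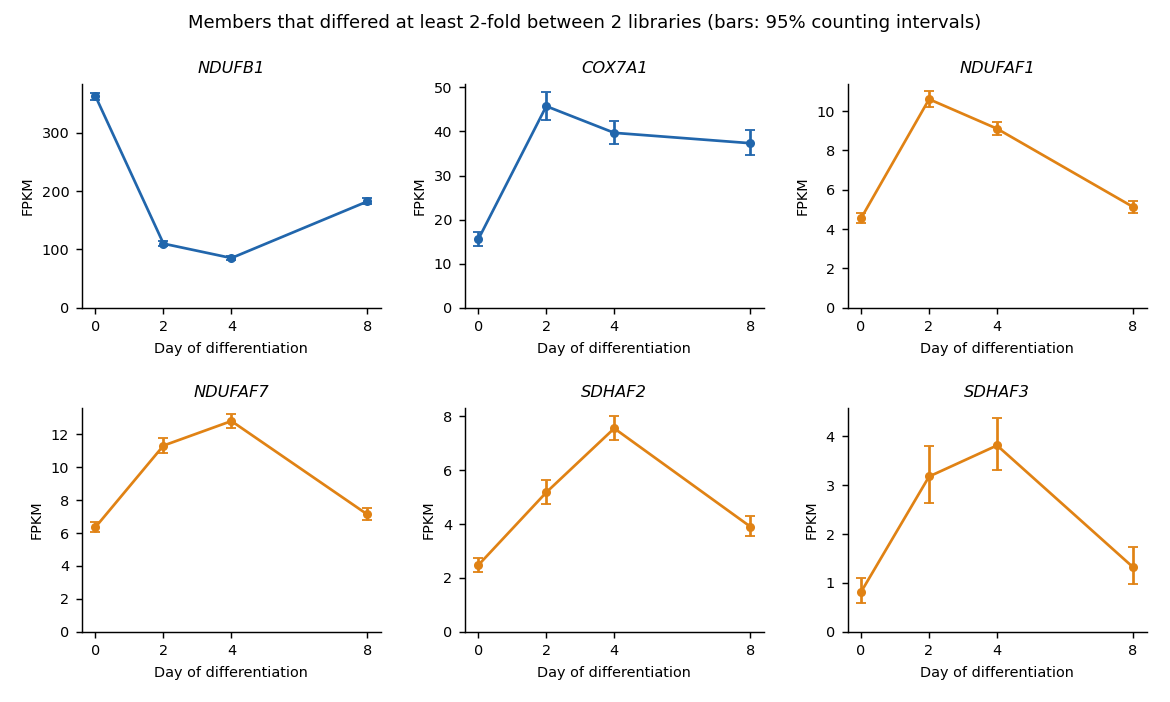
FPKM by day of differentiation for the 6 members that differed at least 2-fold in a comparison, with 1 library per day and bars for 95% counting intervals. NDUFB1 is highest at D0 and lowest at D4, COX7A1 is lowest at D0, and the 4 assembly factors are highest at D2 or D4 and lower at D0 and D8.

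For complex I, NDUFAF1 had 4.56 FPKM (D0), 10.6 (D2), 9.11 (D4) and 5.13 (D8). It was 2.33-fold higher in D2 vs D0 (2.18 to 2.49), and in D4 vs D0 its ratio of 1.997 (1.88 to 2.13) fell just under the 2-fold line on the scale used. NDUFAF1 (chromosome 1, 129968480 to 129993534) shares 738 bases with NUSAP1 on the opposite strand, which had its highest level of 29.4 FPKM at D0. NDUFAF7, a mitochondrial methyltransferase, had 6.36, 11.3, 12.8 and 7.13 FPKM and was 2.01-fold higher in D4 vs D0 (1.91 to 2.13). NDUFAF7 (chromosome 3, 102938968 to 102964204) shares 10161 bases with PRKD3 on the opposite strand, which also had its highest level, 17.9 FPKM, at D0. Both assembly factors were thus high at D2 and D4 and near their D0 level at D8.

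NDUFAF2, a chaperone of late complex I assembly, went the other way. It had 21.9 FPKM (D0), 11.3 (D2), 11.4 (D4) and 14.9 (D8), which was 1.92-fold lower in D4 vs D0 (1.74 to 2.13). NDUFAF3 had 18.7 to 25.6 FPKM, NDUFAF4 5.03 to 7.26, NDUFAF5 7.26 to 10.4 and NDUFAF8 8.53 to 9.93. None of these 4 passed 1.5-fold in any comparison. The unreliable NDUFAF6 had 1.69, 0.789, 0.886 and 1.21 FPKM.

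For complex II, 3 of 3 assembly factors were higher at D2 and D4 than at D0. Of all protein-coding genes, 47.9% were higher at D2 and 53.7% at D4 than at D0. SDHAF2, which promotes attachment of the flavin to SDHA, had 2.47 FPKM (D0), 5.17 (D2), 7.55 (D4) and 3.91 (D8), and was 3.04-fold higher in D4 vs D0 (2.71 to 3.44). It lies on chromosome 2 (10074965 to 10088185) and shares 605 bases with CPSF7 on the opposite strand, which had 3.01, 3.66, 5.39 and 2.56 FPKM. SDHAF3, which acts on the iron-sulfur subunit SDHB, had 0.817, 3.18, 3.82 and 1.32 FPKM, from 43, 122, 198 and 50 reads. Its D4 vs D0 ratio was 4.62 (3.34 to 6.65), and no overlapping gene was listed. SDHAF1, which also serves SDHB, had 10.1, 16.4, 14.6 and 10 FPKM and was 1.63-fold higher in D2 vs D0 (1.51 to 1.76). The smooth muscle markers ACTA2 and TAGLN were low at D2 and D4, where these factors were high. DES and CNN1 were low there too, but at D8 they stayed far below D0. The part of these markers in the result was not tested.

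ATP5S, also called factor B, had 7.38, 11.4, 10.1 and 9.60 FPKM. ATP5SL had 11.8, 14.9, 15.4 and 9.01 FPKM and was at least 1.5-fold lower in D8 vs D4. ATP5SL spans LIPE, the hormone-sensitive lipase, and CEACAM1 on the opposite strand, and LIPE had 0.808, 7.16, 31.9 and 10.3 FPKM. In all, 26 members overlapped 29 listed genes, and 29 of these 29 lay on the opposite strand.

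Genes around the respiratory chain were taken from lists and are described by counts, to be read against the 21.8% of all protein-coding genes that were at least 1.5-fold higher and the 17.5% lower in D4 vs D0. In D4 vs D0, 3 of 7 further complex I assembly factors were at least 1.5-fold higher and 0 lower. The highest were TMEM186 (3.22, 4.89, 5.63 and 4.85 FPKM) and FOXRED1 (9.74, 13.3, 16.6 and 8.23 FPKM), and the lowest was TMEM126B (21.7, 17.1, 14.9 and 19.6 FPKM), followed by ACAD9 (24.1, 21.4, 23.6 and 19.6 FPKM). Of 11 assembly factors of complexes II to V, 0 were higher and 2 lower. The lower ones were COX17, the copper chaperone of complex IV (229.2, 152.0, 149.9 and 151.0 FPKM), and PET100 (116.9, 106.2, 72.9 and 83.0 FPKM), and the largest ratios, under 1.5, were those of COX10 and PET117.

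Among the mobile carriers and entry points, CYCS, which encodes cytochrome c, had 434.8 FPKM (D0), 230.8 (D2), 251.8 (D4) and 284.4 (D8), 1.73-fold lower in D4 vs D0. Of the 8 genes of this list, 3 were at least 1.5-fold higher and 2 lower in D4 vs D0. AIFM1, needed for the import of respiratory subunits, was 2.42-fold higher and ETFB, an electron transfer flavoprotein of fatty acid oxidation, 1.80-fold higher, while SQOR, which oxidises sulfide, was 2.28-fold lower. Of 11 coenzyme Q genes, 1 was higher and 3 lower. The higher one was COQ8A, with 1.15, 17.6, 15.7 and 4.65 FPKM, and COQ9 came next without passing 1.5-fold. The lowest ratios were those of COQ10B (18.6, 13.2, 9.42 and 12.5 FPKM) and COQ2 (19.1, 8.80, 10.1 and 12.4 FPKM).

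Of 12 reliably expressed regulators of respiratory genes, 4 were higher and 0 lower in D4 vs D0, and 0 were higher and 5 lower in D8 vs D4, where 9.94% of all protein-coding genes were higher and 25.8% lower. TFAM, which packages and transcribes mitochondrial DNA, had 24.3, 39.4, 41.8 and 28.0 FPKM, and NRIP1, a corepressor, had 1.13, 2.04, 2.27 and 1.39 FPKM. The lowest D4 vs D0 ratios were those of TFB1M and GABPB1, neither past 1.5-fold. PPARGC1A, the coactivator best known for driving mitochondrial biogenesis, had 0.0403, 0.357, 0.355 and 0.0605 FPKM. Its relative PPARGC1B had 0.311, 0.7945, 1.24 and 0.297 FPKM, and neither was reliably expressed. Of 17 citrate cycle and pyruvate dehydrogenase genes, 3 were higher and 1 lower in D4 vs D0. CS, citrate synthase, had 36.0, 38.4, 69.3 and 47.5 FPKM. SUCLA2, a succinyl-CoA ligase subunit, had 92.6, 49.9, 48.6 and 77.9 FPKM, and SUCLG2 had the next lowest ratio. Of 19 outer membrane, import and chaperone genes, 3 were higher and 3 lower, led by the chaperonins HSPD1 (132.2, 214.9, 254.4 and 136.6 FPKM) and HSPE1 at the high end and by TOMM22 and VDAC3 at the low end.

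Circular RNAs were listed within 9 members. There were 19 of them among 8623 circRNAs, 8 of which appeared in 1 library only and 3 in all 4. Junction reads within members numbered 181 (D0), 136 (D2), 155 (D4) and 123 (D8). The most abundant came from NDUFV2 (chromosome 6, 98833466 to 98842928), with 99, 41, 81 and 59 junction reads, or 635 SRPBM at D0 (516 to 773), 298 at D2 (214 to 404), 481 at D4 (382 to 598) and 496 at D8 (377 to 639). SRPBM is the number of junction reads scaled by all mapped reads of the library. It was lowest at D2, where the interval did not overlap that of D0. The linear NDUFV2 gene was 1.28-fold lower in D2 vs D0. A circle of NDUFS1 (chromosome 15, 109436411 to 109441836) had 30, 13, 11 and 21 junction reads. A circle of NDUFA6 (chromosome 5, 6565453 to 6566862) was listed at 0 at D0 and had 25, 16 and 9 junction reads at D2, D4 and D8. The authors kept circRNAs with at least 2 junction reads, so that a listed 0 does not show absence.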

How the data were processed

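Total RNA from 3 piglets per stage was pooled by the authors, depleted of rRNA, made into strand-specific libraries and sequenced on an Illumina instrument. The authors aligned the reads to Sscrofa11.1 with HISAT2 2.0.5 and deposited FPKM for genes. The counting program and the annotation are not given in the sources used here. Circular RNAs were called by the authors with BWA-MEM and CIRI and deposited as SRPBM in the same column. Groups were taken from the labelled differentiation stage.

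Python 3.11.15 with numpy 2.4.6, pandas 2.3.3, scipy 1.17.1 and matplotlib 3.10.9 was used. Ratios were computed on log2(FPKM + 0.01), so that changes of genes with very low FPKM are understated. The library totals were recovered from the FPKM steps of unspliced small RNA genes, of which 95.6% to 97.7% of values under 30 reads were whole within 0.01 reads. Reads of the members were recovered with the smallest whole length that made the 4 FPKM values of a gene whole reads within 0.001, for 80 of 80 members, and a recovered number may be a whole fraction of the real one, which would widen its interval. Ratio intervals are exact Clopper-Pearson intervals, and those of circRNAs are exact Poisson intervals. The recovery was tested on simulated data. The median half-width of the intervals was 0.056 on the log2 scale and the largest 0.62 (SDHAF3). Left out of the protein-coding genes were 19 mitochondrial tRNA and rRNA rows.

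The 5 comparisons were those of the study. With 1 library per stage, genes were counted past 1.5-fold and no test was run. Named members were the 3 highest subunits of each complex, the 2 highest and 2 lowest D4 vs D0 ratios, those past 2-fold, isoform groups, SDHA to SDHD and the unreliable ones, and of each list the 2 highest and 2 lowest. Others were named after their values were seen. Genes that this rule names but the text does not are not reported here. The members and lists were chosen with earlier results of these data known. The 80 members were paired with RefSeq (Sscrofa11.1) by symbol, start and end, and they lie on 18 chromosomes. Alternatives were the pseudocount, the filter, the scaling, the threshold and the set of genes.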

Additional observations from a re-analysis of the deposited data

How the results depend on the processing

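Without replicates, only counting error could be measured, and the spread between cultures is unknown. No paired analysis was possible because each stage has a single library. Of the results for the 78 members, the median log2 ratio moved by more than the median counting half-width in the following settings, and the cause was not tested. Scaling to the same sum over protein-coding genes gave 0.185 in D2 vs D0, −0.011 in D4 vs D2 and −0.106 in D8 vs D4. Median-ratio scaling gave −0.038 in D4 vs D2, 0.162 in D8 vs D4 and 0.188 in D8 vs D0. With structural subunits alone the medians were −0.011 in D2 vs D0, 0.016 in D8 vs D4 and 0.053 in D4 vs D0. The values as deposited were 0.071 in D2 vs D0, 0.052 in D4 vs D2, −0.048 in D8 vs D4, 0.110 in D4 vs D0 and 0.032 in D8 vs D0, so that the sign turned in D4 vs D2 under both scalings, in D8 vs D4 under median-ratio scaling and with subunits alone, and in D2 vs D0 with subunits alone.

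Counts of members past the threshold moved by more than 1.5 times with a 2-fold line, to 4 higher and 1 lower in D2 vs D0, 1 lower in D8 vs D4, 4 higher and 1 lower in D4 vs D0, and 1 higher and 0 lower in D8 vs D0, where a stricter line leaves fewer genes by construction. Without the filter on low values, 2 were higher in D8 vs D4 and 5 lower in D4 vs D0, since NDUFAF6 and NDUFA4L2 then enter. Median-ratio scaling gave 3 higher and 4 lower in D8 vs D4, and a pseudocount of 1 gave 1 higher in D8 vs D0. The scalings of the highest stage in complexes I and V, and the complex I sum without NDUFB1, were chosen after seeing the data. Of the 6 members past 2-fold, the direction turned with scaling only for COX7A1 in D8 vs D4, among the comparisons and settings run.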
